A study of Saccharomyces cerevisiae with 4 samples.

Results

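The genes described here are 37 genes of budding yeast (Saccharomyces cerevisiae) for glycolysis, ethanol fermentation, acetate formation and glycerol synthesis. They were chosen by name as a list, and every probe set paired with any of them was taken, which gave 42 of the 9335 probe sets on the array. In all, 5656 genes had a probe set of their own. In the mutant strain 8 lysines of histone H3 (residues 4, 9, 14, 18, 23, 27, 36 and 79) were replaced by glycine, and the strain was compared with a wild-type one. Each group had 2 one-colour arrays (n = 2). Both strains were grown in YPD, a glucose-rich medium, to mid-log phase at an optical density of 0.5 to 0.7. Total RNA was labelled with biotin and hybridised. By their titles, the wild-type arrays also served a second H3 mutant, which is not analysed here. Mating type, ploidy and strain background are not in the labels, and neither is whether replicate arrays came from separate cultures. Thus p-values measure only the spread among the arrays, which may be technical, and effects of any further strain difference and of the H3 residues cannot be told apart.

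Glycolysis splits glucose into pyruvate in a fixed chain of enzymes. In yeast on glucose most of that pyruvate is decarboxylated to acetaldehyde and reduced to ethanol, while a side branch reduces dihydroxyacetone phosphate to glycerol, which consumes NADH and protects the cell against high osmolarity. Many of these steps are served by several related genes, of which 1 usually carries the flux on glucose (the major paralog). Some of the others (the minor paralogs) are known for expression at low glucose, in stress or on other carbon sources. Others, such as SFA1, have other roles. Counted as major were HXK2, TDH3, GPM1, ENO2, CDC19, PDC1, ADH1, ALD6, GPD1 and GPP1. Counted as minor were HXK1, GLK1, TDH1, TDH2, GPM2, GPM3, ENO1, PYK2, PDC5, PDC6, ADH3, ADH5, SFA1, ALD2, ALD3, ALD5, GPD2 and GPP2. The question followed here is how major and minor paralogs of each step stood in the H3 mutant relative to wild type.

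The values are MAS5 signals on a linear scale, and tests used log2(signal + 16), so a log2 fold change understates the change of a dim gene. A probe set was tested when it was paired with 1 gene and its mean signal was at or above about 25.1, the 25th percentile of such probe sets. The 4476 genes tested had a median log2 fold change of -0.03. Precision is limited by the few arrays, and standard errors of the fold changes had a median of 0.109 in log2 units. The hybridization controls, bacterial and phage transcripts known to be added in fixed amounts, had geometric mean signals of 174 and 201 on the mutant arrays, against 138 and 141 on the wild-type arrays. Scaling each array to them moved the median of all genes to -0.39, so each change below is relative to arrays with a common trimmed mean of about 125.1. Probe sets numbered from 5600 to below 6700 differed more between the mutant replicates (SD of the log2 difference 0.351, over 650 genes) than the other probe sets did (0.164, over 3826 genes). TPI1, SFA1, ALD5, GPD1 and GPP2 are read by probe sets in that stretch.

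Of the 37 genes, 34 were tested. TDH2 had no probe set of its own, and GPM2 and ALD3 lay below the signal limit. Among the 34, 8 were called higher in the mutant (23.5%, against 14.3% of all tested genes) and 5 lower (14.7%, against 15.5% of all tested genes), by limma with Benjamini-Hochberg adjustment at 0.05. The share of lower calls is therefore near that of the whole array. Both mutant arrays lay above both wild-type arrays in 17 of the 34 genes (31.1% of all tested genes) and below them in 8 (36.3%), so 73.5% did not overlap, against 67.4% of all tested genes. Of the 13 calls, 5 (GLK1, TDH1, PDC5, PDC6 and GPP2) held whichever array was left out, and 8 were lost in at least 1 of the 4 such fits. Fits without an array called fewer genes over the whole array as well. The share of calls lost over all tested genes was not computed, so the losses here cannot be compared with it. Some other genes of the list gained a call in such fits. Of 15 tested minor paralogs 7 rose, 2 fell and 6 did not pass, with a median log2 fold change of 0.31. Of 10 tested major paralogs 0 rose and 0 fell in limma's adjusted test, and the median was 0.19. An unadjusted p below 0.05 in limma was found for 4 of the 10. It was found for 1908 of all 4476 tested genes, which is a similar share. The count of 0 depended on the processing. TDH3 and ENO2 were called higher without wild-type replicate 2, and ADH1 and CDC19 were called higher with a prior variance that did not follow intensity. GPP1 was called lower under quantile normalization. HXK2, ALD6, GPD1 and GPP1 were called lower under scaling to the hybridization controls, where most of all tested genes were called lower. The contrast between major and minor paralogs was not itself tested, and it goes along with brightness. The major paralogs TDH3, GPM1, ENO2, CDC19, PDC1 and ADH1 are among the brightest genes, described below, few of which passed. Median standard errors were 0.125 for major and 0.107 for minor paralogs.

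**Figure D1:**
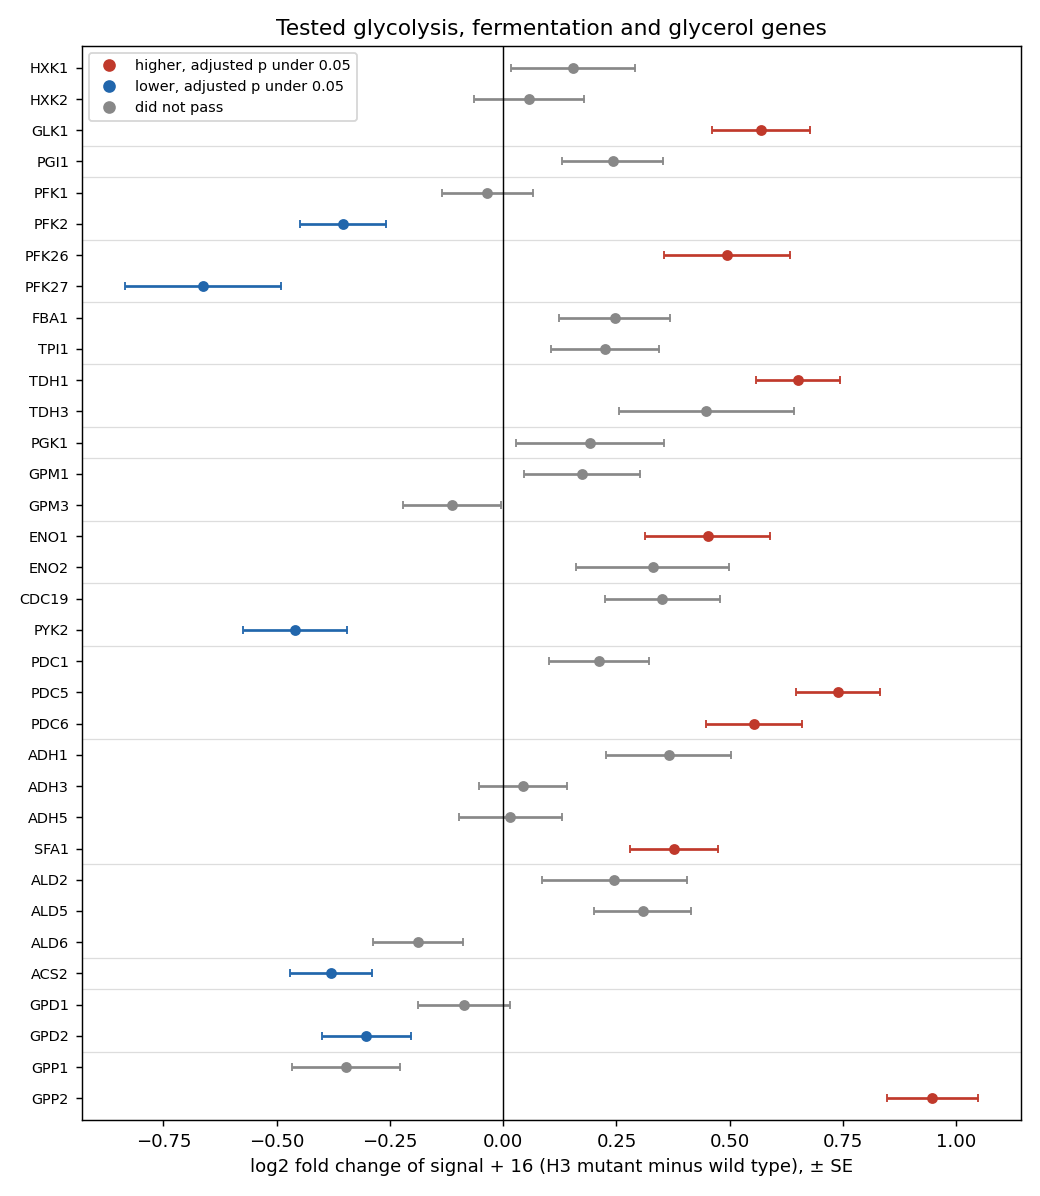
Log2 fold change of signal + 16 (H3 mutant minus wild type, horizontal axis) for the 34 tested genes in pathway order, with bars of 1 standard error; red and blue points passed the adjusted test and grey points did not. PDC5 and GPP2 lie farthest to the right and PFK27 farthest to the left. The major paralogs HXK2, TDH3, GPM1, ENO2, CDC19, PDC1 and ADH1 are grey points right of 0. ALD6, GPD1 and GPP1, also major paralogs, are grey points left of 0.

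At the entry of glucose, GLK1 rose and the hexokinase genes did not pass. GLK1 (YCL040W), the gene for glucokinase, which phosphorylates glucose but not fructose, gave signals of 662.4 and 782.1 in the mutant, against 502.0 and 459.6 in wild type. The groups did not overlap, and the log2 fold change was 0.57 ± 0.108 (SE), with an adjusted p of 0.00488 in limma. A second probe set, shared by GLK1 and the neighbouring reading frame YCL042W, gave 321.1 and 348.6 in the mutant, against 200.8 and 212.4 in wild type. It also passed in the limma fit over all 9275 non-control probe sets, where 14.2% of probe sets were called (log2 fold change 0.66, adjusted p = 0.0113). HXK2, the main hexokinase on glucose, which is also known for a part in glucose repression, gave 1234.9 and 1234.4 in the mutant, against 1328.3 and 1059.5 in wild type. The wild-type arrays lay on either side of the mutant ones, so the groups overlapped, and the 95% interval of the log2 fold change ran from -0.22 to 0.33. HXK1, the hexokinase gene known to be repressed by glucose, overlapped as well, with 363.1 and 463.0 in the mutant, against 329.6 and 408.1 in wild type (log2 fold change 0.15, adjusted p = 0.421 in limma).

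At the phosphofructokinase step, PFK2 fell and PFK1, which encodes the other subunit of the same enzyme, did not pass. PFK2 (YMR205C) gave 961.5 and 964.3 in the mutant, against 1230.8 and 1239.7 in wild type, with arrays of each group close together and well apart from the other group. Its log2 fold change was -0.35 ± 0.0945 (SE), with an adjusted p of 0.0220 in limma, and each of the 4 fits without an array lost the call, with adjusted p from 0.0606 to 0.122. PFK1 gave 969.1 and 989.2 in the mutant, against 949.5 and 1061.4 in wild type, an overlap with a log2 fold change of -0.04.

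The genes for the enzymes that make fructose-2,6-bisphosphate, an activator of phosphofructokinase, moved in opposite directions. PFK26 (YIL107C) gave 76.0 and 55.3 in the mutant, against 44.3 and 38.8 in wild type, and rose with a log2 fold change of 0.49 ± 0.139 (SE). PFK27 (YOL136C), known for induction by fermentable sugars, gave 32.5 and 26.6 in the mutant, against 71.2 and 43.4 in wild type. It fell with a log2 fold change of -0.66 ± 0.173 (SE), the largest loss among the 34 genes. The adjusted p in limma was 0.0269 for PFK26 and 0.0201 for PFK27. All 4 arrays kept the groups apart for each gene, although replicates differed more than for brighter genes. The PFK26 call was lost without mutant replicate 1, wild-type replicate 1 or wild-type replicate 2 (adjusted p up to 0.192). The PFK27 call was lost without mutant replicate 2 or wild-type replicate 1 (adjusted p up to 0.107).

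The abundant trunk genes PGI1, FBA1, TPI1, PGK1 and GPM1 did not pass, although all but PGK1 had both mutant arrays above both wild-type arrays. The log2 fold changes of all 5 were below 0 under scaling to the hybridization controls, from -0.24 to -0.17. PGI1, which isomerises glucose-6-phosphate, gave 2099.3 and 2119.5 in the mutant, against 1676.2 and 1893.0 in wild type (log2 fold change 0.24, adjusted p = 0.131 in limma). FBA1, the aldolase gene, gave 4022.9 and 4227.9 in the mutant, against 3317.9 and 3640.6 in wild type, and its log2 fold change was 0.25. TPI1, the triose phosphate isomerase gene, gave 3086.7 and 3085.9 in the mutant, against 2474.1 and 2813.0 in wild type, and its log2 fold change was 0.23. For PGI1, FBA1 and TPI1 the mutant arrays lay above the wild-type arrays, as they did in 31.1% of all tested genes. PGK1, the phosphoglycerate kinase gene, overlapped, with 3593.3 and 4488.7 in the mutant, against 3101.5 and 3982.1 in wild type. GPM1, the main phosphoglycerate mutase gene, gave 3449.7 and 4044.7 in the mutant, against 3251.2 and 3367.4 in wild type, with a log2 fold change of 0.17 (adjusted p = 0.333 in limma).

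Among the glyceraldehyde-3-phosphate dehydrogenase genes, TDH1 rose, and TDH3, the main gene of the step, did not pass. TDH1 (YJL052W), known as the paralog of stationary and stressed cells, gave 630.6 and 668.5 in the mutant, against 423.6 and 392.7 in wild type. The groups were far apart, the log2 fold change was 0.65 ± 0.0932 (SE), and the adjusted p was 0.00113 in limma. TDH3 gave 4908.4 and 5433.0 in the mutant, against 3043.3 and 4695.7 in wild type. The wild-type replicates of TDH3 differed by more than the gap between the groups, and the 95% interval of its log2 fold change of 0.45 ran from 0.01 to 0.89 (adjusted p = 0.109 in limma). TDH2 could be read only together with its paralogs. The probe set shared by TDH2 and TDH3 gave 4040.9 and 4180.2 in the mutant, against 3244.2 and 3369.4 in wild type (log2 fold change 0.31, with an adjusted p of 0.119 in the all-probe-set limma fit). The probe set shared by TDH1, TDH2 and TDH3 gave 3470.6 and 3806.2 in the mutant, against 2651.6 and 3002.6 in wild type (log2 fold change 0.36, with an adjusted p of 0.112 in the all-probe-set limma fit). Neither shared signal can be divided among its genes.

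The minor mutase genes were dim. GPM3 gave 37.3 and 42.0 in the mutant, against 44.3 and 44.0 in wild type, and did not pass (log2 fold change -0.11). GPM2, below the limit for testing among genes, gave 16.9 and 14.3 in the mutant, against 8.9 and 10.4 in wild type (log2 fold change 0.30, with an adjusted p of 0.0815 in the all-probe-set limma fit). With the signal filter removed, GPM2 was called higher in the fit over genes. GPM2 and GPM3 are homologues of GPM1 that are thought to lack a role in glycolysis.

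At enolase ENO1 passed and ENO2 did not, but their values were alike. ENO1 (YGR254W), the isoform known for expression on non-fermentable carbon sources, gave 3089.9 and 3503.6 in the mutant, against 2163.5 and 2666.2 in wild type. It rose by a log2 fold change of 0.45 ± 0.138 (SE; limma adjusted p = 0.0367), a call lost without mutant replicate 1, mutant replicate 2 or wild-type replicate 1 (adjusted p up to 0.226) and under median centring (0.42, adjusted p = 0.0989). ENO2, the glucose-induced isoform, gave 3267.3 and 3767.3 in the mutant, against 2348.4 and 3308.6 in wild type. Its groups overlapped, and its log2 fold change was 0.33 ± 0.169 (SE, adjusted p = 0.170 in limma). The ENO2 value was 0.0842 without wild-type replicate 1, and 0.58 with a call without wild-type replicate 2 (adjusted p = 0.0429 in limma). The probe set shared by ENO1 and ENO2 gave 4967.8 and 4933.0 in the mutant, against 3665.4 and 4419.9 in wild type (log2 fold change 0.30, with an adjusted p of 0.207 in the all-probe-set limma fit). The own probe sets of ENO1, ENO2 and TDH3 carry a suffix that marks a departure from a standard, fully unique probe set, and none of them enters a fit limited to probe sets with no suffix.

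At pyruvate kinase PYK2 fell and CDC19 did not pass. PYK2 (YOR347C), a minor pyruvate kinase repressed by glucose, gave 46.8 and 55.1 in the mutant, against 79.9 and 72.0 in wild type. It fell by a log2 fold change of -0.46 ± 0.115 (SE; limma adjusted p = 0.0175), a call lost without mutant replicate 1 or wild-type replicate 1 (adjusted p up to 0.127). CDC19, the main pyruvate kinase gene, gave 4149.2 and 4696.2 in the mutant, against 3357.0 and 3562.4 in wild type. The mutant arrays of CDC19 lay above the wild-type arrays, and the log2 fold change of 0.35 had a 95% interval from 0.06 to 0.64 (adjusted p = 0.0647 in limma). The CDC19 value was 0.0447 under quantile normalization and -0.0686 under scaling to the hybridization controls.

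At pyruvate decarboxylase, the branch point to ethanol, both minor paralogs rose and PDC1 did not pass. PDC5 (YLR134W), a minor isoform known to be induced when PDC1 is lost, gave 367.2 and 333.8 in the mutant, against 204.2 and 202.7 in wild type. It rose by a log2 fold change of 0.74 ± 0.0927 (SE; limma adjusted p = 0.000577), and the call held whichever array was left out and under all 17 alternative settings. PDC6 (YGR087C), the isoform known for induction by sulfur limitation, gave 52.1 and 50.4 in the mutant, against 28.6 and 31.1 in wild type. It rose with a log2 fold change of 0.55 ± 0.106 (SE, adjusted p = 0.00508 in limma). PDC1, the main isoform, gave 2726.0 and 2796.6 in the mutant, against 2340.3 and 2427.6 in wild type. The mutant arrays were above the wild-type arrays for PDC1 as well, but the log2 fold change of 0.21 did not pass (adjusted p = 0.177 in limma).

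Of the 4 alcohol dehydrogenase genes in the list, SFA1 passed and ADH1, ADH3 and ADH5 did not. SFA1 (YDL168W), which encodes a glutathione-dependent formaldehyde dehydrogenase that also reduces long-chain aldehydes, gave 326.5 and 304.0 in the mutant, against 253.5 and 225.2 in wild type. It rose with a log2 fold change of 0.38 ± 0.0978 (SE, adjusted p = 0.0197 in limma), but the value was -0.02 under scaling to the hybridization controls. Its call was lost without mutant replicate 1 or wild-type replicate 2 (adjusted p up to 0.112). ADH1, the main ethanol-forming enzyme, gave 4865.0 and 5562.5 in the mutant, against 3790.8 and 4296.9 in wild type. The groups did not overlap, and the log2 fold change of 0.36 had a 95% interval from 0.05 to 0.67 (adjusted p = 0.0725 in limma). ADH3, the mitochondrial isozyme, gave 734.9 and 819.8 in the mutant, against 751.4 and 753.8 in wild type, and ADH5 gave 52.3 and 62.3 in the mutant, against 55.1 and 57.6 in wild type. Both overlapped, with log2 fold changes of 0.04 and 0.02.

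On the branch from acetaldehyde to acetate and acetyl-CoA, ACS2 fell and the aldehyde dehydrogenase genes did not pass. ACS2 (YLR153C), the acetyl-CoA synthetase of glucose-grown cells, which also supplies the nucleus with acetyl-CoA, gave 518.0 and 511.5 in the mutant, against 688.7 and 661.1 in wild type. Replicates were close and the groups apart, by a log2 fold change of -0.38 ± 0.0897 (SE; limma adjusted p = 0.0134). The ACS2 call was lost without mutant replicate 1, mutant replicate 2 or wild-type replicate 1, with adjusted p up to 0.0715. ALD6, the main cytosolic enzyme, gave 880.2 and 788.4 in the mutant, against 939.3 and 963.8 in wild type (log2 fold change -0.19, adjusted p = 0.182 in limma). A second ALD6 probe set read below 3 on every array. ALD5, a mitochondrial isozyme, gave 155.1 and 163.3 in the mutant, against 115.2 and 136.6 in wild type (log2 fold change 0.31, adjusted p = 0.0571 in limma). ALD2, of the stress-induced cytosolic pair ALD2 and ALD3, gave 39.5 and 40.6 in the mutant, against 40.6 and 23.5 in wild type. ALD3 gave 16.8 and 19.5 in the mutant, against 12.9 and 11.1 in wild type, below the limit for testing. The probe set shared by ALD2 and ALD3 overlapped between groups, with 112.7 and 100.5 in the mutant, against 78.0 and 104.1 in wild type.

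The glycerol branch held the largest gain among the 34 genes. GPP2 (YER062C), a glycerol-3-phosphatase known for induction by high osmolarity, gave 156.0 and 143.7 in the mutant, against 70.1 and 69.8 in wild type, a ratio of mean signals of 2.14. It rose by a log2 fold change of 0.95 ± 0.100 (SE; limma adjusted p = 0.00022), and the call held under all 16 alternatives that kept its probe set. GPP1, the main phosphatase isoform in unstressed cells, gave 752.6 and 906.0 in the mutant, against 991.6 and 1122.6 in wild type. Its mutant arrays lay below its wild-type arrays, and the log2 fold change of -0.35 narrowly missed the threshold (adjusted p = 0.0542 in limma). It was called lower in 8 of 17 alternatives.

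The first enzyme of the branch gave smaller values. GPD2 (YOL059W), the glycerol-3-phosphate dehydrogenase paralog known for its role in redox balance without oxygen, gave 102.1 and 97.7 in the mutant, against 130.5 and 123.4 in wild type. It fell by a log2 fold change of -0.30 ± 0.0979 (SE; limma adjusted p = 0.0451), and each of the 4 fits without an array lost the call (adjusted p from 0.0740 to 0.194). GPD1, the osmotically induced paralog, gave 268.2 and 297.1 in the mutant, against 282.4 and 319.9 in wild type, and overlapped (log2 fold change -0.09).

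**Figure D2:**
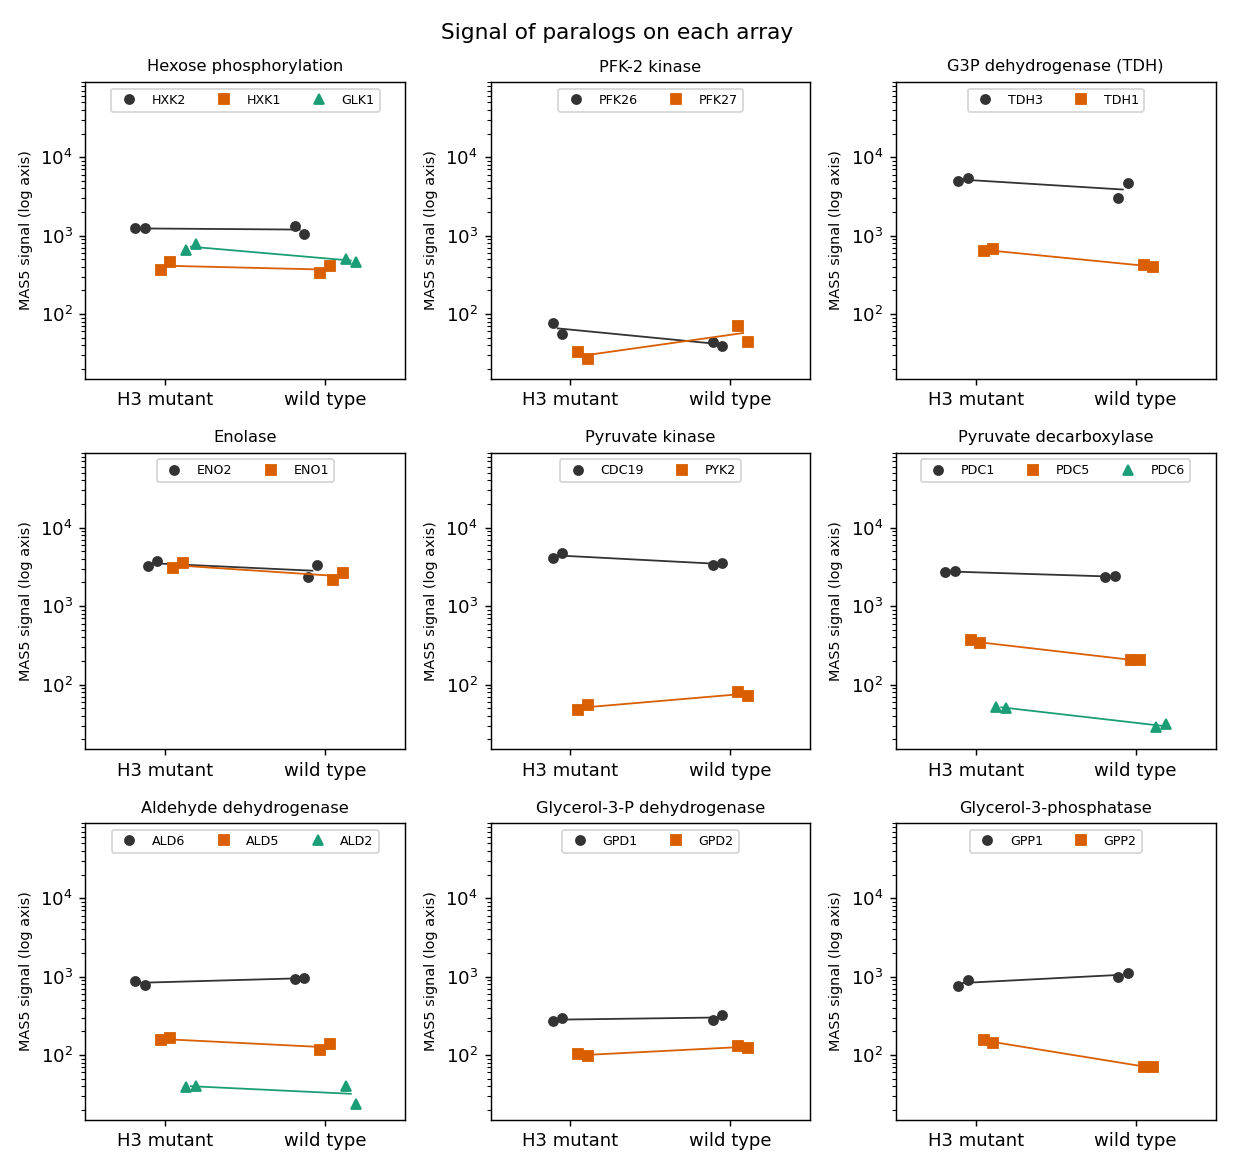
MAS5 signal on each array (vertical log axis) of the paralogs at 9 steps, with the H3 mutant left of wild type, a point per array and a line between group means. The lines of GPP1 and GPP2, of PFK26 and PFK27 and of CDC19 and PYK2 slope in opposite directions, while PDC1, PDC5 and PDC6 are all higher in the mutant and PDC5 and PDC6 have the steeper lines.

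The shift between paralogs was read as the log2 ratio of the minor to the major paralog within each array (for phosphofructokinase, of PFK2 to PFK1 and of PFK27 to PFK26). A common scaling of an array moves this ratio only through the offset of 16, so mostly for dim genes. Levels of different probe sets are not comparable, so only the difference of this ratio between the groups was used. Of 20 pairs, 17 had both genes past the signal limit. With 2 arrays against 2, the exact two-sided permutation test cannot go below p = 0.333, so no pair can pass. In 13 of the 17 pairs the ratios did not overlap, 7 higher and 6 lower in the mutant. Among all pairs of tested genes the ratios did not overlap in 68.7%, so the count of 13 is close to what any genes on these arrays show.

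The size of the shift differed widely between pairs. The ratio of GPP2 to GPP1 was higher in the mutant by 1.29 on the log2 scale, with a smallest gap between a mutant and a wild-type array of 1.02. PDC5 to PDC1 was higher by 0.53, GLK1 to HXK2 by 0.51, ALD5 to ALD6 by 0.50 and PDC6 to PDC1 by 0.34. In the GPP2, PDC5, GLK1 and PDC6 pairs the minor paralog was called higher and the major one did not pass. PFK27 to PFK26 was lower in the mutant, with a difference of -1.16, and PYK2 to CDC19 was lower, with a difference of -0.81. In the PYK2 pair the minor paralog was called lower and the major one did not pass. ADH3 and ADH5 to ADH1 had differences of -0.32 and -0.35, and PFK2 to PFK1 had a difference of -0.32. These 10 pairs each had an exact permutation p of 0.333 (n = 2 each), the smallest possible.

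For TDH1 to TDH3, HXK1 to HXK2, SFA1 to ADH1 and GPD2 to GPD1 the ratios overlapped. TDH1, SFA1 and ENO1 were called higher and GPD2 lower, and their major paralogs did not pass. The TDH1 to TDH3 difference of 0.20 ran from -0.16 without wild-type replicate 2 to 0.57 without wild-type replicate 1, since those arrays differed in TDH3. The remaining pairs did not overlap: ALD2 to ALD6 had a difference of 0.43, GPM3 to GPM1 of -0.29 and ENO1 to ENO2 of 0.12, with a smallest gap of 0.0132 for the enolases. Without wild-type replicate 2 the ALD2 and ENO1 differences were 0.16 and 0.0253, and without wild-type replicate 1 they were 0.71 and 0.22. Quantile normalization brought the ADH3, ADH5 and GPM3 differences to -0.0172, -0.0565 and -0.0351, with overlap. An offset of 64 reduced that of PDC6 to 0.0895 and that of PFK27 to -0.66, and quantile normalization that of PYK2 to -0.51, all still without overlap.

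**Figure D3:**
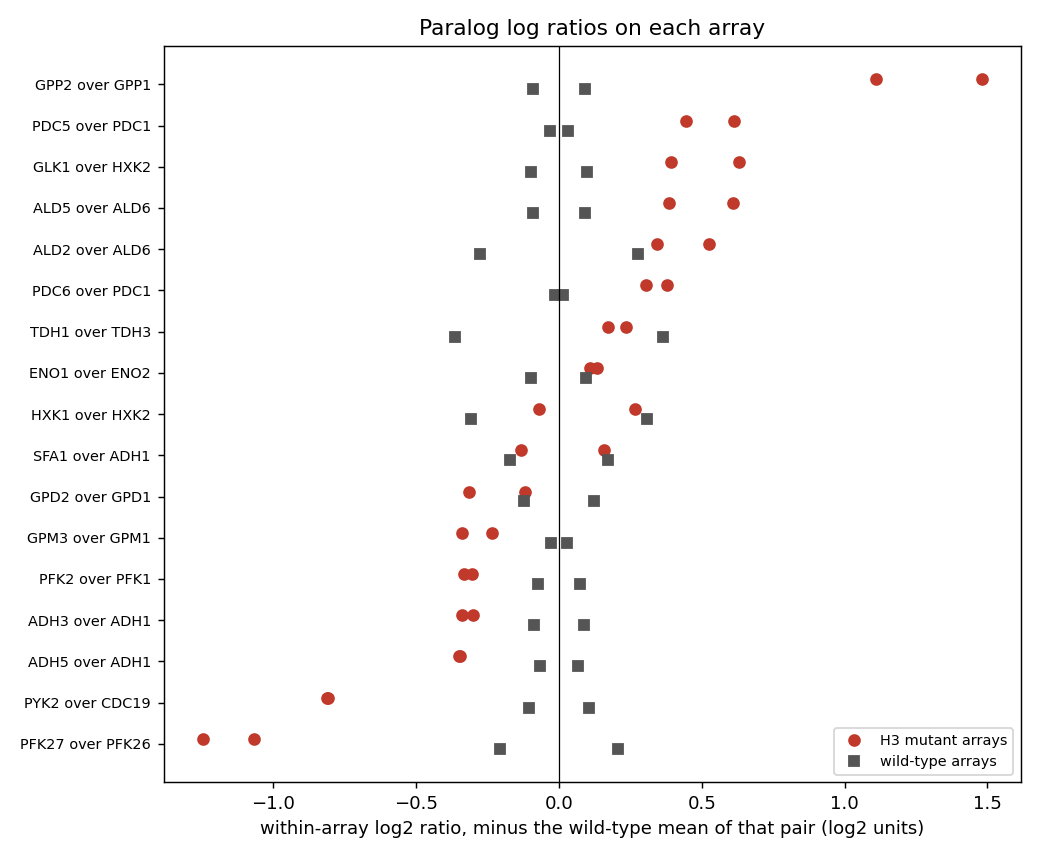
Log2 ratio of a gene to its paralog within each array, minus the wild-type mean of that pair (horizontal axis, log2 units), for the 17 pairs with both genes tested; circles are H3 mutant arrays and squares wild-type arrays. GPP2 over GPP1 lies farthest right, and PFK27 over PFK26 and PYK2 over CDC19 lie farthest left.

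The brightest genes of the pathway shared a shift with other bright genes on the arrays. FBA1, TPI1, TDH3, PGK1, GPM1, ENO1, ENO2, CDC19, PDC1 and ADH1 had mean signals of at least 2000, near the top of the range (highest signal 6601.5 and 7497.0 on the mutant arrays, against 4435.7 and 5442.5 on the wild-type arrays). All 10 had a log2 fold change above 0, with a median of 0.29, and 1 of them (ENO1) passed (10%). Of 66 other genes as bright, 57 were above 0, with a median of 0.17, and 5 passed as higher (7.58%). Of the 66, 35 were ribosomal protein genes, of which 0 passed, and the 5 were among the other 31 (16.1%). Both mutant arrays lay above both wild-type arrays in 8 of the 10 and in 32 of the 66, against 31.1% of all tested genes. Under quantile normalization 7 of the 10 and 32 of the 66 were above 0, with medians of 0.0437 and -0.00969. Under scaling to the hybridization controls 2 of the 10 and 3 of the 66 were above 0, with medians of -0.13 and -0.25. The part of signal saturation or of the scaling in the values of these bright genes was not tested.

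Over all 34 tested genes the median log2 fold change was 0.22, which was 0.25 above the median of all tested genes. Without wild-type replicate 1 it was 0.14, also 0.14 above the median of all tested genes. It was 0.0709 above that median under quantile normalization and 0.185 above it under scaling to the hybridization controls. Under the latter scaling 2 of the genes were called higher, GPP2 (0.59, adjusted p = 0.00111) and PDC5 (0.34, adjusted p = 0.0463, both in limma). Then 12 were called lower, which included all 5 genes called lower with the deposited scaling. Most genes of the whole array were called lower there too, since 2695 of 4475 tested genes were called and only 205 of them were higher. The 12 are thus not a drop particular to the pathway. GLK1, TDH1, PDC6, PFK26 and ENO1 kept log2 fold changes of 0.16, 0.24, 0.26, 0.18 and 0.0329 there and did not pass.

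**Figure D4:**
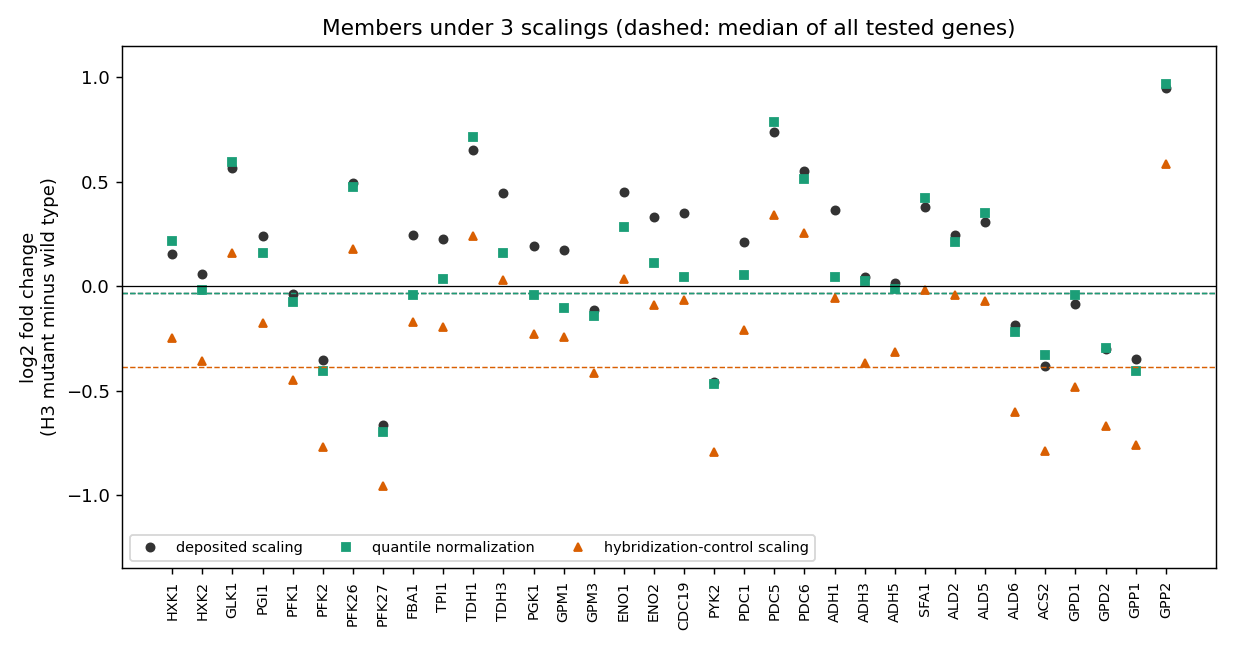
Log2 fold change (H3 mutant minus wild type, vertical axis) of the 34 tested genes under 3 scalings of the arrays, with the median of all tested genes under each scaling as a dashed line. GPP2, PDC5, GLK1, TDH1, PDC6, PFK26, ENO1 and TDH3 stay above 0 under each scaling. PFK1, PFK2, PFK27, GPM3, PYK2, ALD6, ACS2, GPD1, GPD2 and GPP1 stay below 0. The 10 genes with mean signals of at least 2000, such as FBA1, CDC19 and ADH1, are lower under quantile normalization and lower again under hybridization-control scaling.

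Genes that neighbour the pathway genes on the chromosomes were also read. Of 21 tested genes next to a called gene, 3 were called in the same direction and 5 in the opposite one. Over all tested genes 14.3% were called higher and 15.5% lower, so the 3 are near the share of the whole array. Next to the tested genes that did not pass, 7 of 21 tested neighbours were called, against 29.8% of all tested genes. GID7 beside GLK1 (0.50), YIL108W beside PFK26 (0.37) and REV1 beside PYK2 (-0.33) passed in the same direction as their neighbour. Both neighbours of GPD2, MAM3 (0.42) and ARG1 (0.98, an arginine synthesis gene), rose while GPD2 fell. The GID7, YIL108W, REV1 and MAM3 calls were each lost in at least 1 fit without an array, and the YIL108W value was -0.00146 under scaling to the hybridization controls. Next to ALD2 lies ALD3, and next to GPD1 lies GPM2.

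Genes around the pathway were counted against the 14.3% of all tested genes called higher and the 15.5% called lower. Of 4 other genes of ethanol and acetate metabolism, 3 rose (75.0%) and 1 (ACS1) did not pass. ALD4, the main mitochondrial aldehyde dehydrogenase, gave 722.6 and 709.0 in the mutant, against 264.2 and 317.9 in wild type, and rose with a log2 fold change of 1.26 (adjusted p = 5.37e-05 in limma). ADH2, which oxidises ethanol and is known to be repressed by glucose, gave 242.7 and 254.9 in the mutant, against 148.0 and 157.0 in wild type, and rose by 0.65, although the call was lost under scaling to the hybridization controls (0.26, adjusted p = 0.133 in limma). ADH4 rose by 0.76, and by 0.45 with the mean over its probe sets in place of the brightest one.

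Of 7 tested genes of glycerol use, uptake and export 3 rose (42.9%, against 14.3% of all tested genes) and 4 did not pass. GUT2, the mitochondrial glycerol-3-phosphate dehydrogenase that returns glycerol-3-phosphate to the trunk, gave 147.7 and 144.9 in the mutant, against 47.3 and 43.6 in wild type (log2 fold change 1.40, adjusted p = 2.55e-05 in limma). DAK2, a dihydroxyacetone kinase gene, gave 99.4 and 115.1 in the mutant, against 30.0 and 25.9 in wild type (log2 fold change 1.49, adjusted p = 3.55e-05 in limma). GUT1, the glycerol kinase gene, rose by 0.35, but passed in only 8 of 16 alternatives. It did not pass in any of the 4 fits without an array, under median centring or quantile normalization, with no filter or under scaling to the hybridization controls (0.0243). For both GUT2 and DAK2 all mutant arrays were far above all wild-type arrays.

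Of 4 tested genes of gluconeogenesis and pyruvate metabolism 1 rose (25%, against 14.3% of all tested genes), 1 fell (25%, against 15.5%) and 2 did not pass. PCK1, the first committed enzyme of gluconeogenesis, had a log2 fold change of 1.03, and MAE1, the mitochondrial malic enzyme gene, had a log2 fold change of -0.58. Of 12 tested genes of the pentose phosphate pathway and phosphoglucomutase 3 rose (25%, against 14.3% of all tested genes), 4 fell (33.3%, against 15.5%) and 5 did not pass. SOL4 and GND2, minor paralogs of SOL3 and GND1 in the oxidative branch, rose by 0.78 and 0.67 on the log2 scale. RKI1 and TAL1, of the non-oxidative branch, had log2 fold changes of -0.64 and -0.59. TKL2, the minor transketolase gene, chosen after its values were seen, rose by 0.82, a call lost without either wild-type array, while TKL1 did not pass (0.10).

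Among 5 tested transcription factors of glycolytic genes 0 rose, 1 fell and 4 did not pass, so the share of lower calls (20.0%) was near the 15.5% of all tested genes. RAP1, which binds promoters of glycolytic and ribosomal protein genes as well as telomeres, gave 73.2 and 62.0 in the mutant, against 104.3 and 98.4 in wild type (log2 fold change -0.49, adjusted p = 0.0111 in limma), a call lost without mutant replicate 2 or wild-type replicate 1. GCR1, the activator that works with Rap1 at these promoters, gave a log2 fold change of 0.04 and did not pass. Of 12 tested genes of osmotic signalling, the route known to induce GPD1 and GPP2, 3 rose (25%, against 14.3% of all tested genes) and 7 did not pass. The 2 that fell (16.7%) are about the 15.5% of all tested genes. HOG1, the kinase of this route, gave 256.3 and 271.9 in the mutant, against 419.2 and 428.5 in wild type (log2 fold change -0.65, adjusted p = 0.000892 in limma). PBS2, the kinase that activates Hog1, fell as well (-0.34), but did not pass in any of the 4 fits without an array or under quantile normalization. STE11 and SSK22, kinases upstream of Pbs2, rose by 0.90 and 0.66, and the SSK22 value did not pass under scaling to the hybridization controls.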

How the data were processed

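Biotin-labelled cRNA of 4 samples was read on one-colour oligonucleotide arrays. The deposited table holds 1 intensity per probe set and array on a linear scale, which the authors computed with MAS5, per the submitters' processing notes. The sources used here do not give its version, its scaling target or a genome build. The values were not normalized again. In the platform annotation 6504 of 9335 probe sets had 1 gene, 328 had more and 2503 had no gene. Gene symbols were brought up to date through gene identifiers to the RefSeq table of assembly R64, which gave names and neighbours only, no coordinates. Where a gene had more than 1 probe set, the brightest stood for it. Log2(signal + 16) was fitted in limma (version 3.58.1, R 4.3.3) by lmFit and eBayes, with the prior variance following intensity, and the mutant minus wild-type coefficient was adjusted by Benjamini-Hochberg over 4476 genes (2 residual and 7.03 prior degrees of freedom). Shared and dim probe sets were read from such a fit over 9275 non-control probe sets. The test code was run on simulated data with independent errors and few changed genes. Those data differ from these arrays, so that run does not bear on the calls here. All 37 genes are named. Of the surrounding lists up to 4 called genes by moderated statistic are named, or 2 uncalled where none was called. ACS1, GCR1, TKL1, TKL2 and the chromosomal neighbours were singled out after their values were seen. The genes, lists and tests were chosen with earlier results of these data known. The search for promoter motifs was not run. Figures used matplotlib 3.10.9.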

Additional observations from a re-analysis of the deposited data

How the results depend on the processing

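Each choice was changed alone. The alternatives were quantile normalization, median centring, offsets of 1 and 64, scaling to 9 hybridization control probe sets, the signal filter removed or raised to the median, eBayes without the trend or with a robust prior, the mean over probe sets, only probe sets with no suffix, each array left out, the replicate number as a block and, added after the data were seen, leaving out probe sets numbered from 5600 to below 6700. Scaling to the hybridization controls gave 2695 called genes of 4475 tested (7.61% of those called were higher, against 48.0% with the deposited scaling). Under this scaling 2 genes of the pathway were higher and 12 lower, with a pathway median of -0.20. Under it HXK2 (-0.36, adjusted p = 0.0298) and ADH3 (-0.37, adjusted p = 0.0266) were called lower in limma, and SFA1 and YIL108W lost their calls at -0.0206 and -0.00146. Genes without a call that changed sign under it were HXK1 (-0.25), PGI1 (-0.18), FBA1 (-0.17), TPI1 (-0.19), PGK1 (-0.23), GPM1 (-0.24), ENO2 (-0.0888), CDC19 (-0.0686), PDC1 (-0.21), ADH1 (-0.0546), ADH5 (-0.31), ALD2 (-0.0437), ALD5 (-0.0700), ACS1 (-0.28), GCR1 (-0.33) and TKL1 (-0.31). Quantile normalization moved the pathway median to 0.0388 and changed the sign of HXK2 (-0.0193), FBA1 (-0.0431), PGK1 (-0.0407), GPM1 (-0.11) and ADH5 (-0.0139), none with a call. Median centring gave -0.0138 for ADH5. With 1 array left out, 771 to 914 genes were called, 5 to 9 of the pathway higher and 0 to 3 lower. Values then spanned 0 for HXK1 (-0.0142 to 0.32), HXK2 (-0.10 to 0.22), PFK1 (-0.11 to 0.0436), ADH3 (-0.0336 to 0.12), ADH5 (-0.0829 to 0.11), ALD2 (-0.0142 to 0.50), ACS1 (-0.0236 to 0.13) and GCR1 (-0.0709 to 0.14). With the replicate number as a block 1766 genes were called, 15 of the pathway higher and 6 lower, which added PGI1, FBA1 and ALD5 and the major paralogs TDH3, ENO2, CDC19 and ADH1 to the higher calls and GPP1 to the lower ones. Replicate differences of the groups correlated at r = 0.130 over genes, and the labels do not say that a number marks a shared culture or day. Paralog pairs whose ratios did not overlap numbered 8 of 12 with the filter at the median and 14 of 19 with no filter. The share over all gene pairs was not computed for these settings. With an array left out, 2 arrays stand against 1 and keep apart more easily, so those counts cannot be compared with the count from all arrays. Over 60 named genes (the tested ones) and their alternatives, 995 values in all, 901 were on the same side of the threshold as the reported value, 64 lost a call and 30 gained one. The sign differed from the reported one in 35 values, 20 of them under scaling to the hybridization controls.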
